A study of Mus musculus with 7 samples.

Results

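Pax6, Emx1, Emx2, Lhx2 and Lhx9 are 5 homeobox genes that are best known from progenitors of the pallium, the dorsal part of the telencephalon that forms the cortex. They were followed here in dissected subpallium, the ventral part, of mouse embryos. The members were taken by name, as every probe whose RefSeq transcript carries one of the 5 symbols. This gave 8 probes of the 41174 on the array, for 5 of the 17178 named genes. Emx2, Lhx9 and Pax6 had a pair of probes each, and Emx1 and Lhx2 a single one.

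Messenger RNA was measured on single-colour Agilent arrays from the ganglionic eminences and septum of female CD-1 embryos at E12.5, with each array labelled as a separate embryo. The 4 control embryos carry the label Control, with no further genotype. The 3 embryos labelled Otx2 cKO carried a floxed Otx2 allele together with RxCre, a Cre line that per the series description is active across the forebrain but spares a caudal dorsomedial domain with the hem and choroid plexus. The arrays lay on 2 slides, with control replicates 1 and 2 and cKO replicate 1 on slide 1 and the other 4 on slide 2. The labels name 4 litters, of which only litter 2 holds both groups (control replicates 2 and 3, cKO replicates 1 and 3).

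Each of these genes encodes a transcription factor with a homeodomain, a fold that binds short AT-rich DNA. Pax6, a paired-type factor, and Emx2 act in opposing gradients across the cortical progenitor zone, Pax6 strongest rostrally and laterally and Emx2 caudally and medially. Emx1 marks nearly the whole pallial progenitor zone and is a paralogue of Emx2. The LIM homeodomain factor Lhx2 keeps cortical progenitors from becoming hem or, at the pallial-subpallial border, antihem, and its paralogue Lhx9 is expressed in medial pallium and thalamus among other places. Not all of the 5 are strictly pallial: Pax6 also marks progenitors of the lateral ganglionic eminence, and Lhx2 is present in subpallial progenitors.

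The stretches before the transcription starts of Emx2, Lhx9 and Emx1 are shown because Emx2 and Lhx9 had the most similar values across embryos of all pairs among the 5, while Emx1 was the single gene with a lower mean in the cKO-labelled group. They are the 250 bases before 1 RefSeq start of each gene, taken from RefSeq on the GRCm38.p6 build (all 5 symbols matched), and read 5′ to 3′ on the gene's strand, with capitals for TAAT on either strand (ATTA when on the other strand).
Emx2, plus strand, chr19:59458440-59458689: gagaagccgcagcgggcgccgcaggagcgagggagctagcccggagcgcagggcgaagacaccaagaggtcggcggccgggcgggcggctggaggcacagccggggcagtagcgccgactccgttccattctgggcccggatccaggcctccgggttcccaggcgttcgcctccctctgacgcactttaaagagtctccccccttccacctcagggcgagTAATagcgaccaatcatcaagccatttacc
Lhx9, minus strand, chr1:138842445-138842694: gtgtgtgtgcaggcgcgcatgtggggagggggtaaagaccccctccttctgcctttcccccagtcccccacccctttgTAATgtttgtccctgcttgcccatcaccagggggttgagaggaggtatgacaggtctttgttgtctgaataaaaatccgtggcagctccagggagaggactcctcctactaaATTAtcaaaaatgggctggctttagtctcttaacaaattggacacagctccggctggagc
Emx1, plus strand, chr6:85187681-85187930: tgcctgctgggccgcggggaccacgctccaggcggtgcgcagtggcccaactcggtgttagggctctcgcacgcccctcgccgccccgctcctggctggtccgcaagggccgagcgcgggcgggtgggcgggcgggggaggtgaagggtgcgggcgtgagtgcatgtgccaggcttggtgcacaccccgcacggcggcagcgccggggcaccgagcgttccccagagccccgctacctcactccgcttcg
TAAT is the core that many homeodomains contact. It occurred 1 time before the Emx2 start and 2 times before the Lhx9 start, and no match was found before the Emx1 start; 54.9% of the 32851 windows of this length in the table hold it. The longer TAATCC, the form preferred by Otx-type homeodomains (searched on both strands, and containing TAAT), was found in none of the windows of the 5 genes, against 6.25% of all windows. The same was true of TAATTA, which reads the same on both strands and was in 4.84% of all windows. The G and C content was 67.2% for Emx2, 53.6% for Lhx9 and 75.6% for Emx1, with a median of 52.4% over all windows. The Lhx9 window lies inside the annotated gene (chr1:138825186-138848839), before an internal start. Those of Emx2 and Emx1 end where the annotated gene begins. The Lhx9 start was not matched to the transcript of either Lhx9 probe. These matches describe the letters of short windows and are no measurement of binding. Emx2os, an antisense RNA gene, is the neighbour that starts next to Emx2 on the opposite strand; neither it nor Pax6os1, the corresponding RNA at Pax6, had a named probe.

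Values below are log2 signals relative to the 75th percentile of the array's probes, except where a summed level is named. A value of one probe therefore cannot be set against that of another. A summed level adds the unlogged relative signals of a list's genes with a value on every array. The brightest genes weigh most in it. Differences are the mean of the arrays labelled Otx2 cKO minus the mean of the controls, tested with limma over the 13341 genes that passed the filter on dim probes, with Benjamini-Hochberg adjustment and a threshold of 0.05. Tissue was measured in bulk, so fewer cells of a type and less RNA per cell cannot be told apart.

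The Otx2 probe, which reads the targeted gene, ran against the label. Its log2 signal was 0.19 to 0.56 in controls and 1.77 to 2.34 in cKO-labelled arrays, a difference of 1.52 ± 0.17 (SE, limma adjusted p = 0.0356). The difference was 1.26 to 1.62 over 23 alternatives, and it passed the test in 9 of them. It did not with slide as a block (limma adjusted p = 0.0766), with litter as a block (0.304) or with any 1 array left out (0.056 to 0.156). The labels do not say which exons are floxed, and a probe outside them checks nothing. Every direction below rests on the labels. In the same fit 28 genes passed the test, 11 higher and 17 lower (7 higher and 17 lower with quantile normalization). All 7 factors of the subpallial progenitor list were well above background on every control array, among them Nkx2-1, Gsx2 and Dlx2.

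Of the 5 homeobox genes 4 had a higher mean in the cKO-labelled arrays and 1 a lower one, and limma called 0 of the 5 at an adjusted p under 0.05, where 0.210% of all genes tested were called (0.0825% higher and 0.127% lower). Emx2 and Lhx9, 2 of the 5, had an unadjusted p under 0.05, against 11.0% of all genes. All 5 genes and all 8 of their probes passed the filter on dim probes. The median of the 5 differences was 0.32, beside 0.01 over all genes tested. Every cKO-labelled array lay above every control array for 1 of the 5 genes, Emx2; this held for 5.14% of all genes. None of the 5 had every cKO-labelled array below every control, as 7.65% of all genes did, and groups without overlap in either direction made up 12.8% of all genes.

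**Figure D1:**
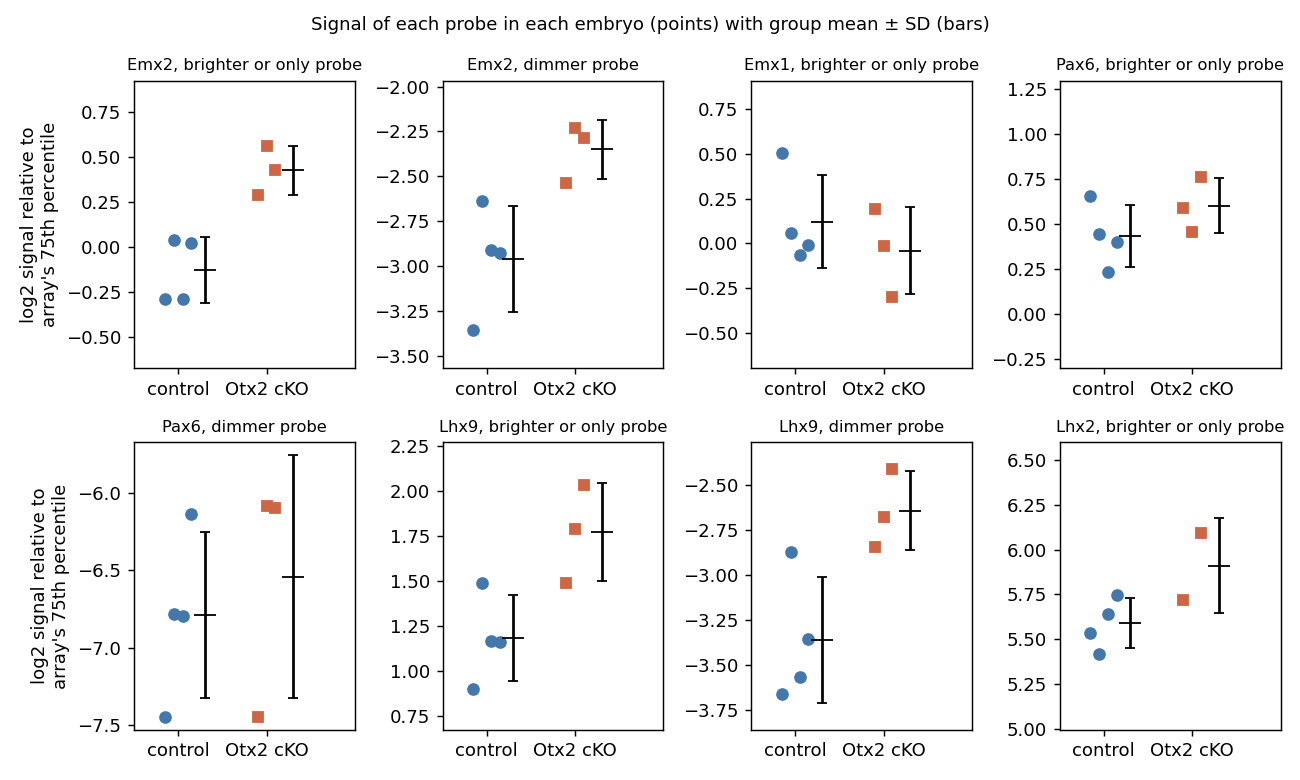
Log2 signal relative to the array's 75th percentile for each of the 8 probes, 1 point per embryo, with the mean and SD of each group as a bar beside the points. The groups separate on both Emx2 probes and on the dimmer Lhx9 probe; the vertical scales have different positions, and Lhx2 has 2 cKO-labelled points because 1 spot was marked as an outlier.

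Emx2 showed the clearest separation of the groups among the 5. On its brighter probe the controls read -0.29, 0.04, -0.29 and 0.02 in replicates 1 to 4, and the cKO-labelled arrays 0.29, 0.56 and 0.43 in replicates 1 to 3. The lowest cKO-labelled value was thus above the highest control, and the controls formed a lower and a higher pair. The difference was 0.56 ± 0.13 (SE, n = 4 and 3), a 1.47-fold higher signal with a 95% interval of 0.26 to 0.85 on the log2 scale, and it did not pass the test (limma adjusted p = 0.238). The difference was 0.41 within slide 1, 0.63 within slide 2 and 0.48 within litter 2.

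A second, dimmer probe of the same Emx2 transcript gave the same order of groups. Its values were -3.35, -2.64, -2.91 and -2.93 in controls and -2.54, -2.23 and -2.29 in cKO-labelled arrays. Again the groups did not overlap, although control replicate 2 and cKO replicate 1 lay close together. The difference was 0.61 ± 0.18 (SE; limma over 19606 probes, adjusted p = 0.319). The controls spread more on this probe (SD 0.30) than on the brighter one (SD 0.19).

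Emx1, the paralogue of Emx2, had no such separation. The controls read 0.51, 0.06, -0.07 and -0.01, and the cKO-labelled arrays 0.19, -0.02 and -0.30. Control replicate 1 was the highest of the 7 arrays and cKO replicate 3 the lowest, with the other 5 mixed. The difference of -0.16 ± 0.18 (SE) did not pass the test (limma adjusted p = 0.78), and its 95% interval ran from -0.58 to 0.26. The value was -0.09 on slide 1 alone, -0.12 on slide 2 alone and -0.05 in litter 2. It came to -0.03 without control replicate 1 and to -0.03 without cKO replicate 3.

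Read within each array, the log2 ratio of Emx2 to Emx1 is free of the scaling between arrays. It was -0.79, -0.02, -0.22 and 0.03 in controls and 0.10, 0.58 and 0.73 in cKO-labelled arrays. All 3 cKO-labelled ratios were above all 4 control ratios, narrowly so for cKO replicate 1. The mean was -0.25 ± 0.38 (SD) in controls and 0.47 ± 0.33 in cKO-labelled arrays; this ratio was chosen after the values were seen and is given without a test.

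Pax6 was read by 10 replicate spots of 1 probe, against 1 spot for each probe of the other 4 genes. The controls read 0.65, 0.45, 0.23 and 0.40 and the cKO-labelled arrays 0.59, 0.46 and 0.76. Control replicate 1 was above 2 of the 3 cKO-labelled arrays, so the groups overlapped. The difference of 0.17 ± 0.13 (SE) did not pass the test (limma adjusted p = 0.663), with a 95% interval of -0.13 to 0.47. Within an array the spots had a median SD of 0.06 log2 (0.04 to 0.11), while the embryos of a group had an SD of 0.17 in controls and 0.15 in cKO-labelled arrays. The SD between arrays also holds labelling, hybridization, slide and litter. The difference was 0.04 within slide 1, 0.29 within slide 2 and 0.34 within litter 2. It was 0.10 without control replicate 3 and 0.09 without cKO replicate 3.

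The other Pax6 probe, of the same RefSeq transcript, was near background. It was well above background on 3 of the 7 arrays, control replicate 4 and cKO replicates 2 and 3. Control replicate 1 and cKO replicate 1 were at the floor of -7.45. Its difference of 0.25 ± 0.42 (SE) was smaller than its error.

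Lhx9 differed by about as much as Emx2, with more spread. On its brighter probe the controls read 0.90, 1.49, 1.16 and 1.16 and the cKO-labelled arrays 1.49, 1.79 and 2.03. Control replicate 2 reached the level of cKO replicate 1, and the other 3 controls were lower than every cKO-labelled array. The difference was 0.59 ± 0.18 (SE), 1.51-fold, with a 95% interval of 0.17 to 1.01, and did not pass the test (limma adjusted p = 0.313). It was 0.29 within slide 1, which holds the 2 arrays of equal level, 0.75 within slide 2 and 0.43 within litter 2.

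The dimmer Lhx9 probe carries the accession of another Lhx9 transcript. It read -3.66, -2.87, -3.57 and -3.36 in controls and -2.85, -2.68 and -2.41 in cKO-labelled arrays. Control replicate 2 was again the highest control, here just below cKO replicate 1. The difference was 0.72 ± 0.21 (SE; limma over probes, adjusted p = 0.318). Over all 8 probes 3 had every cKO-labelled array above every control, beside 5.83% of all probes; these 3 belong to 2 genes and are not independent. Limma called 0 of the 8 probes, where 0.143% of all probes were called, and 4 had an unadjusted p under 0.05, beside 10.7% of all probes.

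Lhx2 gave a strong signal on its only probe, with no saturated spot. The controls read 5.54, 5.42, 5.64 and 5.75, and cKO replicates 1 and 3 read 5.72 and 6.09. The Lhx2 spot of cKO replicate 2 was marked by the scanner software as an outlier and was left out, so the fit used 4 and 2 arrays. Control replicate 4 was above cKO replicate 1, and the groups overlapped. The difference of 0.32 ± 0.15 (SE, 1.25-fold) did not pass the test (limma adjusted p = 0.509), and its 95% interval ran from -0.05 to 0.69. With marked spots kept, which also changes the scaling, controls read 5.40, 5.26, 5.45 and 5.62 and cKO-labelled arrays 5.61, 5.77 and 5.96, a difference of 0.35 ± 0.12 (limma adjusted p = 0.378). The difference was 0.24 within slide 1 and 0.38 within litter 2. Slide 2 had a single cKO-labelled value and was not fitted.

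The ratio of Lhx9 to Lhx2 overlapped between the groups. With marked spots kept it was -4.64, -3.93, -4.48 and -4.58 on the log2 scale in controls and -4.23, -4.23 and -4.06 in cKO-labelled arrays. Control replicate 2 was the highest of the 7 arrays. The mean differed by 0.23, less than the SD of 0.33 among controls; this ratio, too, was chosen after the values were seen and has no test.

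**Figure D2:**
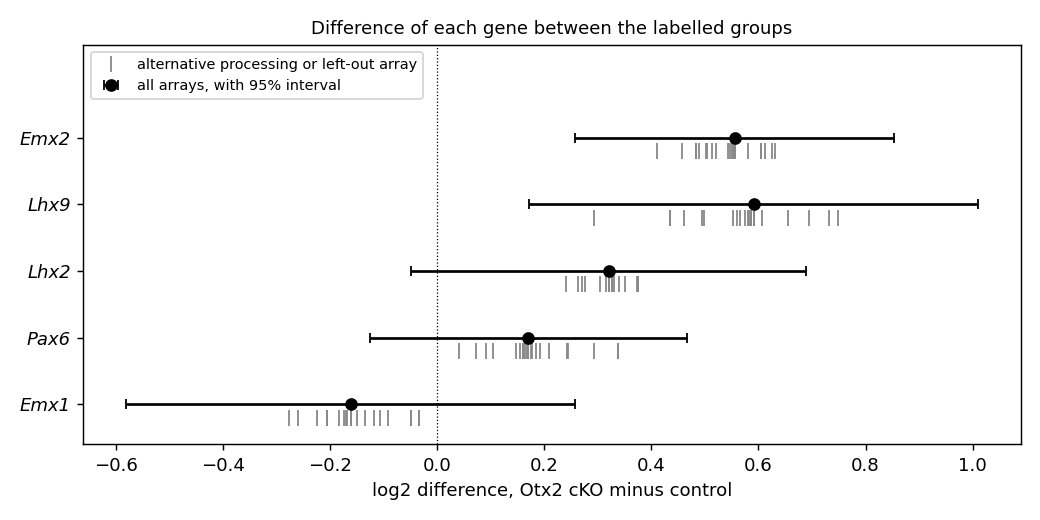
Log2 difference (Otx2 cKO minus control) of each of the 5 genes on its brightest probe, with the 95% interval of the limma fit as a bar and each alternative processing or left-out array as a grey tick. All ticks of a gene lie on its side of 0, and the intervals of Lhx2, Pax6 and Emx1 include 0; the intervals are not adjusted for the number of genes.

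Across embryos the 5 genes did not share 1 pattern. Set against the control mean of each gene, cKO replicate 3 had 0.85 for Lhx9, 0.56 for Emx2, 0.51 for Lhx2 and 0.33 for Pax6, but -0.42 for Emx1. In cKO replicate 2 Emx2 and Lhx9 were at 0.69 and 0.61 while Pax6 was at 0.02 and Emx1 at -0.14. In cKO replicate 1 the 5 values ran from 0.07 to 0.42. Control replicate 1 showed the opposite order, with Emx1 and Pax6 at 0.38 and 0.22 and Emx2 and Lhx9 at -0.16 and -0.28.

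**Figure D3:**
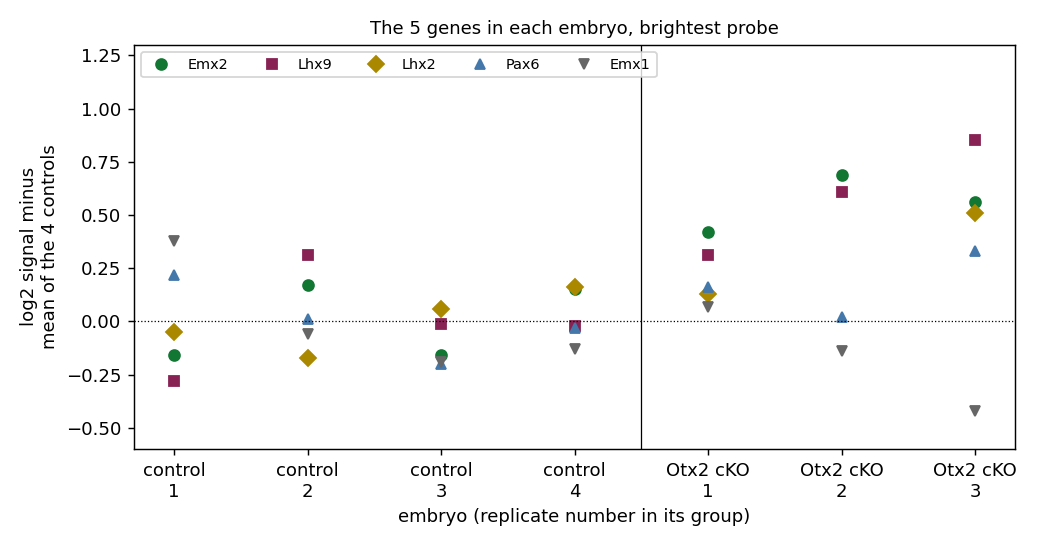
Log2 signal of each of the 5 genes in each embryo, minus the mean of the 4 controls, by labelled group and replicate number (the order of replicates has no meaning). Emx2 and Lhx9 lie at 0.31 or more in all 3 cKO-labelled embryos, whereas Pax6 runs from 0.02 to 0.33 and Emx1 from -0.42 to 0.07 there; Lhx2 has no point in cKO replicate 2.

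The likeness of a pair of genes was measured as the root mean square difference of their profiles, each centred on its own mean over the arrays. Among the 10 pairs Emx2 and Lhx9 were closest (0.16 over 7 arrays) and Emx1 and Lhx9 farthest apart (0.55 over 7 arrays). Of 11653 other genes well above background on all arrays, 90 were closer to Emx2 than Lhx9 was, and 16 were closer to Lhx9 than Emx2 was. Emx1 and Emx2 differed by 0.47 over 7 arrays, more than most genes differed from either. These values describe the 7 arrays, which share the group difference, and are no test of a link.

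The genes most like each of the 5 came from outside the homeobox families. For Emx2 these were Lin28b, which encodes an RNA-binding protein that blocks let-7 maturation, Ptpn13, a tyrosine phosphatase gene, and Stac3, at root mean square differences of 0.07, 0.09 and 0.10 over 7 arrays. For Lhx9 they were Cckar, a cholecystokinin receptor gene, Shisa2 and Fam171b, at 0.08, 0.13 and 0.13. The profiles of Pax6 and Emx1 varied less, and so had more neighbours: 31 genes lay within 0.1 of Pax6, led by Tbrg1, Tardbp and Cpsf6, and 28 within 0.1 of Emx1, led by Rcan3, Akt2 and Adcy5. For Lhx2, over 6 arrays, Rab13, Ppil6 and Amd1 led 38 such genes.

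Other pallial progenitor factors did not pass the test. Of 9 measured members of that list 0 rose and 0 fell, with 6 positive and 3 negative differences (-0.75 to 0.48) and a median of 0.08, which was -0.02 with arrays scaled to their median. The doublesex-related genes Dmrta2, Dmrt3 and Dmrta1, of the cortical progenitor zone, had differences of 0.16 ± 0.12, 0.24 ± 0.20 and 0.48 ± 0.15. Of these only Dmrta1 had every cKO-labelled array above every control.

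Genes of the pallial-subpallial border, where Pax6 is strong, were measured with 6 of 6 members, of which 0 passed the test. The secreted WNT inhibitor gene Sfrp2 differed by 0.15 ± 0.09 and Tgfa by -0.39 ± 0.20. Dbx1, a homeobox gene of ventral pallium and septum progenitors, had -0.18, -0.07, 0.56 and 0.98 in controls and 1.15, 1.47 and 1.73 in cKO-labelled arrays. All 3 were above the controls, whose own range exceeded 1 log2 unit, and the difference of 1.13 ± 0.31 did not pass (limma adjusted p = 0.29). The 6 differences ran from -0.66 to 1.13, with 3 positive and 3 negative; their median was 0.01, and it was negative in 7 of 23 alternatives.

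Downstream genes of pallial neurogenesis were also measurable in this dissection. The cortical neuron gene Tbr1 was well above background on all 7 arrays, and of 8 measured members 0 passed. Eomes, of intermediate progenitors, and Tbr1 differed by -0.03 ± 0.14 and -0.02 ± 0.13, and Neurog1 by 0.43 ± 0.15. Of the 8 differences 3 were positive and 5 negative, and the list's median was -0.03, with 2 of 23 alternatives of the other sign. The lowest 3, named after their values were seen, were genes of maturing glutamatergic neurons. Neurod2 read 3.86 to 4.22 in controls and 2.89 to 3.56 in cKO-labelled arrays, a difference of -0.80 ± 0.18 (limma adjusted p = 0.231). Neurod6 read 2.37 to 2.97 and 1.67 to 1.93, a difference of -0.76 ± 0.16 (limma adjusted p = 0.209). Their groups did not overlap, whereas those of Slc17a7, a vesicular glutamate transporter gene at -0.79 ± 0.30 (limma adjusted p = 0.412), did. The part of pallial tissue in the levels of the 5 genes, and in their differences, was not tested.

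Factors of subpallial progenitors, several of which oppose Pax6 at the border, gave 0 calls among 7 measured genes. Gsx2 differed by -0.02 ± 0.20 and Dlx2 by -0.10 ± 0.15. Of the 7 differences 2 were positive and 5 negative, with a median of -0.03. Olig2 and Dlx1, named after their values were seen, had every cKO-labelled value below every control. Olig2, a bHLH gene of ventral progenitors, read 1.60 to 1.89 in controls and 0.86 to 1.12 in cKO-labelled arrays, a difference of -0.75 ± 0.10 (limma adjusted p = 0.0679). Dlx1, with 2 cKO-labelled values, differed by -0.13 ± 0.10 (limma adjusted p = 0.681).

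In the LIM homeobox family, to which Lhx2 and Lhx9 belong, calls were in other branches. Of 7 other measured members 2 fell and 0 rose, with 1 positive and 6 negative differences and a median of -0.14. The positive difference, that of Lhx5, was about as large as that of Lhx9. Lhx5 read 0.69 to 1.11 in controls and 1.26 to 1.72 in cKO-labelled arrays, so the groups did not overlap. Its difference of 0.59 ± 0.15 did not pass the test (limma adjusted p = 0.276). Lhx8, needed for forebrain cholinergic neurons, read 3.20 to 3.61 in controls and 0.99 to 1.56 in cKO-labelled arrays, a difference of -2.04 ± 0.17 (limma adjusted p = 0.0152). Lhx6, a gene of cortical interneurons born in the medial ganglionic eminence, read 2.96 to 3.17 and 1.58 to 2.19, a difference of -1.18 ± 0.15 (limma adjusted p = 0.0491). They passed the test in 14 and 7 of 23 alternatives and were lower in all of them. Of 10 measured cofactors of LIM proteins 0 passed, with 7 positive and 3 negative differences (-0.46 to 0.16); the adaptor Ldb1, which all LIM homeodomain factors bind, differed by -0.15 ± 0.10, Lmo4 by 0.12 ± 0.13 and Ssbp3 by 0.04 ± 0.09.

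In the Pax family 6 of 8 other members were below the filter on dim probes. Pax4 and Pax9 were measured near background, with differences of -0.19 ± 0.44 and 0.34 ± 0.59.

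**Figure D4:**
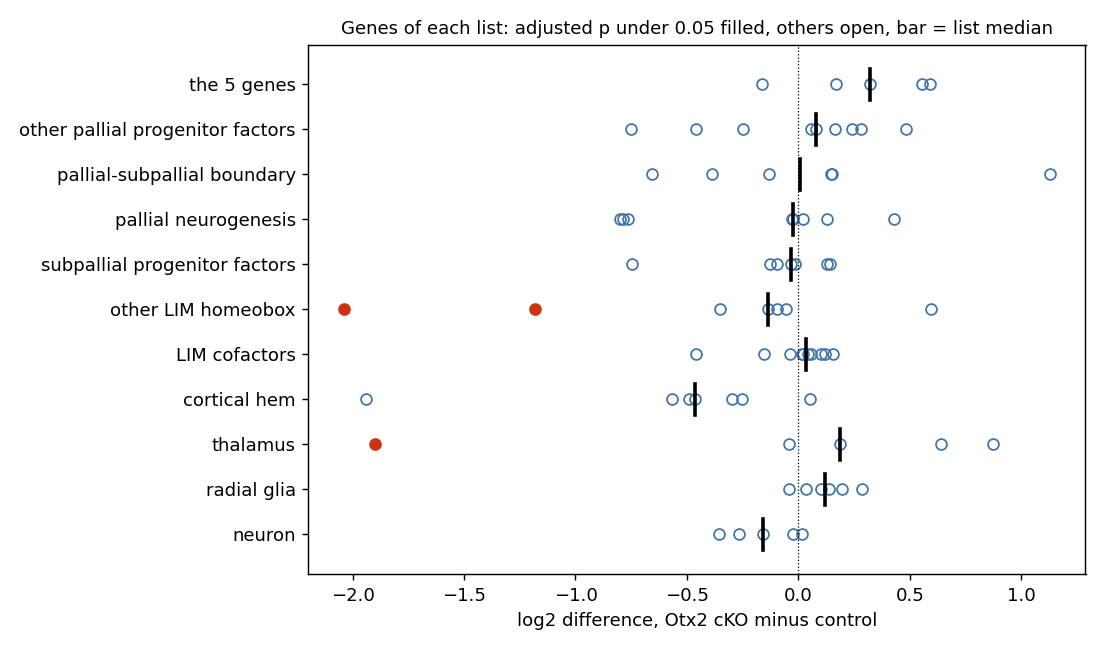
Log2 difference (Otx2 cKO minus control) of every measured gene in 11 lists, 1 circle per gene, filled where the adjusted p was under 0.05, with the list's median as a bar. The 5 genes have a median of 0.32 and no filled circle; the filled circles are Lhx8, Lhx6 and Gbx2.

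Because some of the 5 genes are also expressed in neighbouring tissue, lists for thalamus and cortical hem were read beside them. Of 5 measured genes in the thalamus list Gbx2 fell, by 1.90 ± 0.16 on the log2 scale (limma adjusted p = 0.0152). It was called in 11 of 23 alternatives and lower in all of them. Which cells of the dissection held the Gbx2 signal was not measured. The median of the list was 0.19, with 3 positive and 2 negative differences. Tcf7l2 and Barhl2 differed by 0.19 ± 0.21 and -0.04 ± 0.41. Irx1 and Olig3 were higher, by 0.64 ± 0.18 (limma adjusted p = 0.295) and 0.88 ± 0.68. Only Irx1 had every cKO-labelled array above every control. The list did not move in 1 direction. Of 7 measured cortical hem genes 0 passed, with a median of -0.46 and with 1 positive and 6 negative differences. They were -0.57 ± 1.06 for Wnt3a, 0.05 ± 0.53 for Wnt8b and -1.94 ± 0.75 for Rspo1. Wnt3a was well above background on 3 control arrays and 1 cKO-labelled array, and Wnt8b on 2 and 1. Both were thus measured near background. The summed level of the hem genes was 1.66 to 3.83 in controls and 0.34 to 3.97 in cKO-labelled arrays, relative to the array's 75th percentile. The part of such tissue in the levels of Emx2 and Lhx9 was not tested.

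Progenitor and neuron markers gave no call. Of 6 radial glia genes 0 passed, 5 of 6 were positive (the median was negative in 2 of 23 alternatives) and the summed level was 212 to 261 in controls and 247 to 302 in cKO-labelled arrays, with 0.20 ± 0.10 for Fabp7, 0.14 ± 0.13 for Slc1a3 and 0.03 ± 0.10 for Nes. Of 5 neuron genes 0 passed, 4 of 5 were negative and the summed level was 170 to 192 in controls and 147 to 164 in cKO-labelled arrays, with -0.36 ± 0.09 for Tubb3, -0.16 ± 0.09 for Dcx and -0.27 ± 0.10 for Stmn2. The remaining neuron genes, Map2 and Elavl3, were near 0, at 0.02 ± 0.105 and -0.03 ± 0.115. The part of progenitors and neurons in the differences of the 5 genes was not tested.

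Markers of other cells varied between embryos of both groups, with 0 calls in each list. The summed level of 5 mesenchyme genes with a value on every array was 1.60 to 21.6 in controls and 1.74 to 44.2 in cKO-labelled arrays, with -0.01 ± 0.98 for Col1a1, -0.17 ± 1.28 for Col1a2 and -0.60 ± 1.51 for Col3a1. It was 6.06 to 10.2 and 5.61 to 13.6 for 6 endothelial genes (Pecam1 0.13 ± 0.22, Cdh5 0.10 ± 0.36, Kdr 0.01 ± 0.35). Of the 6 endothelial differences 3 were positive and 3 negative, with a median of -0.04. The summed level was 1.41 to 2.06 and 1.42 to 2.75 for 5 microglial genes (Aif1 0.24 ± 0.23, Csf1r -0.19 ± 0.34, Cx3cr1 -0.18 ± 0.26). For 5 erythroid genes it was 127 to 205 and 108 to 221 (Alas2 0.06 ± 0.40, Slc4a1 0.18 ± 0.34). Of the choroid plexus genes Ttr was below the filter, and Kl and Folr1 summed to 0.05 to 0.07 and 0.07 to 0.10, with differences of 0.63 ± 0.38 and 0.27 ± 0.19. Leaving out cKO replicate 2, which had the highest median of the mesenchyme genes, gave 0.49 for Emx2 and 0.58 for Lhx9. This did not make the groups alike in those genes. Relative to the control mean of each gene, their medians were -2.67 and -0.67 in cKO replicates 1 and 3. In control replicates 1 to 4 they were 0.86, -2.79, 0.63 and 1.22. The part of mesenchyme in the differences of Emx2 and Lhx9 was not tested.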

How the data were processed

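Signals were deposited as Agilent Feature Extraction 10.7.3.1 files, per the file headers (the submitters' processing notes name version 10.5). Spot intensity was background-subtracted and detrended within each array by the authors' software, with nothing normalized between arrays. The authors' deposited log2 table, whose scale is not stated, served as an alternative; its columns had medians of 7.61 to 7.64, and within an array its order followed the median spot signal (rank correlation at least 0.99996).

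Control spots and spots marked as outliers (1.24% to 2.51% per array) were left out. Spots of a probe were averaged, divided by the 75th percentile over probes, floored at 1 common level (log2 -7.45) and taken to log2. Of 41174 probes 24844 were named through RefSeq accessions (GRCm38.p6 table), 0 with several symbols, and 16330 had none. Each gene took its brightest probe, and was tested when this was well above background on at least 3 arrays, with 2 values per group; 13341 of 17178 genes were tested with limma 3.58.1 in R 4.3.3 (group only). The number of arrays limits the precision. The 5 genes and the 18 context lists (120 genes, 100 of them tested) were chosen with earlier results of these data known. Named were all probes of the 5 genes, Otx2, in each list the genes past the threshold or else the first 3 tested in written order, and the 3 nearest profiles of each gene. Some genes and 1 list that this rule names are not reported here. The fit was tested on simulated data. The files hold no mean spot signal, so the normexp alternative used the median signal.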

Additional observations from a re-analysis of the deposited data

How the results depend on the processing

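All 5 genes kept their direction and stayed short of the threshold in every alternative run: 23 for Pax6, Emx1, Emx2 and Lhx9 and 19 for Lhx2, which had too few values on slide 2, without cKO replicate 1 or 3, and under the filter for all 7 arrays. The difference ran from 0.41 to 0.63 for Emx2 (lowest adjusted p 0.133), from 0.29 to 0.75 for Lhx9 (0.189), from 0.24 to 0.38 for Lhx2 (0.295), from 0.04 to 0.34 for Pax6 (0.579) and from -0.28 to -0.03 for Emx1 (0.512). Leaving out 1 array gave 0.49 to 0.63, 0.46 to 0.73, 0.26 to 0.37, 0.09 to 0.24 and -0.28 to -0.03. Scaling arrays to their median moved the median difference over all genes by -0.09, and gave 0.46 for Emx2 and 0.07 for Pax6. The count of 28 genes called was 48 with normexp, 43 with the authors' table, 50 with a variance trend, 15 with no filter and 16 with slide as a block. It was 0 within slide 1, within slide 2, within litter 2 and with litter as a block (414, 1194, 844 and 864 genes at an unadjusted p under 0.05; limma), and 0 to 25 with 1 array left out: 11 without control replicate 1, 25 without cKO replicate 1, 3 without cKO replicate 2, and 0 without control replicate 2, 3 or 4 or cKO replicate 3 (1297, 1075, 1463 and 866 at an unadjusted p under 0.05). With the replicate block, on the arrays numbered 1 to 3, 0 genes were called (1498 at an unadjusted p under 0.05), and Emx2 was at 0.61 (adjusted p = 0.324) and Lhx9 at 0.59. The numbers did not pair the arrays: deviations from the group means correlated at 0.11, -0.53 and 0.03 for numbers 1, 2 and 3. The cause of these changes in count was not tested.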
